A study of Mus musculus with 18 samples.

Results

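The Skint genes encode membrane proteins of the immunoglobulin superfamily that are related to butyrophilins and are known from mouse skin and thymus. Skint1, the founding member, acts in the thymus, where it is needed for the selection of the gamma delta T cells that later settle in the epidermis as dendritic epidermal T cells. In the epidermis the family is made by keratinocytes, and Skint3 and Skint9 have been linked in mice to the exchange between keratinocytes and these T cells during wound repair. The family lies in 1 cluster on mouse chromosome 4.

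Of the 10 genes Skint1 to Skint10, 6 have a probe set of their own, that is a probe set that the platform's table pairs with exactly 1 gene, among 21789 such probe sets for 19938 genes. They are Skint2, Skint3, Skint4, Skint7, Skint9 and Skint10, and Skint1, Skint5, Skint6 and Skint8 were not analysed here. The family was chosen with its levels in CFA epidermis known, where Skint9 and Skint10 were seen to be lower in mutants, so that difference is given as a description with no test. Skint genes are close relatives, and probes of 1 member may bind transcripts of another. The probe sequences were not used here, and the division of signal among members is uncertain for that reason.

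Affymetrix Mouse Gene ST arrays, 18 in all, measured expression in 3 biological replicates of each of 6 groups. These are epidermis of CFA mutant, CFA control, naive mutant and naive control mice, and dorsal root ganglia (DRG) of naive mutant and naive control mice. All mice were males of at least 7 weeks that carried K14Cre, a Cre recombinase driven in keratinocytes by the promoter of keratin 14. Mutants were K14Cre-Trpa1 fl/fl, in which Cre removes exons 22 to 24 of the ion channel gene Trpa1, and controls, labelled wild type, were K14Cre-Trpa1 +/+. Both were of a mixed background of C57BL/6, CBA and Swiss Webster, and their colonies had been kept apart for generations, so genotype and colony cannot be told apart. Epidermis was peeled from glabrous hindpaw skin after dispase, and CFA, complete Freund's adjuvant, a killed mycobacterial emulsion that inflames the paw, was injected at 50 µl into the plantar skin 2 days earlier. There were no arrays of vehicle-injected paws, so CFA was set against naive epidermis, and injection and CFA cannot be told apart.

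Signals are on the log2 scale, where a difference of 1 is 2-fold. Levels are compared only within a gene, since a probe set's brightness also depends on its probes. They are also compared only within a tissue, since array medians were 5.37 to 5.48 in epidermis and 6.51 to 6.58 in DRG. The 3 arrays of each group limit the precision. Background was taken on each array as the 95th percentile over odorant and vomeronasal receptors (1212 probe sets), which lay at 4.58 to 4.79 in epidermis and 5.77 to 5.94 in DRG. Replicate arrays correlated with each other at 0.99 or above. Keratinocyte marker genes were high in epidermis, with mean signals of 9.97 to 10.68 over 8 basal genes on the array, and all 5 sensory neuron genes measured were above background in DRG, so the labelled tissues carried their markers.

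In RefSeq (GRCm38.p6) the cluster runs along chromosome 4 in the order Skint8, Skint7, Skint1, Skint4, Skint3, Skint9, Skint2, Skint10, Skint6 and Skint5, with pseudogenes between some of them. Skint3 and Skint4 are neighbours there, and Skint9 lies beside Skint3. The 250 bases before the annotated starts are shown for the 4 members whose signal rose above background, because these were the genes that differed between groups. All are from RefSeq, written 5′ to 3′ on the gene's own strand, and they are reference sequence rather than that of the mixed-background mice. Skint4 has a pair of annotated starts, of which the second is shown. Capitals mark the longest run that Skint9 shares with Skint10, and that Skint3 shares with Skint4.
Skint9, chr4:112433986-112434235, minus strand: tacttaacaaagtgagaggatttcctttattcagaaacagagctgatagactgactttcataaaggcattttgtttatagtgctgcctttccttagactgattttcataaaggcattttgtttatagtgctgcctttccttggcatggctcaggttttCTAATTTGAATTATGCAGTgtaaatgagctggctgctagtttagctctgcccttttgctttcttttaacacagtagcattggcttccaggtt
Skint10, chr4:112774862-112775111, minus strand: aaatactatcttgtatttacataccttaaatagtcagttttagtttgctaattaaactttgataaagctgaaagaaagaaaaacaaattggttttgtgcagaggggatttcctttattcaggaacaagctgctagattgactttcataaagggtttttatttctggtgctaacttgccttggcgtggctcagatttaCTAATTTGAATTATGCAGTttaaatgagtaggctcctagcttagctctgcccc
Skint3, chr4:112231995-112232244, plus strand: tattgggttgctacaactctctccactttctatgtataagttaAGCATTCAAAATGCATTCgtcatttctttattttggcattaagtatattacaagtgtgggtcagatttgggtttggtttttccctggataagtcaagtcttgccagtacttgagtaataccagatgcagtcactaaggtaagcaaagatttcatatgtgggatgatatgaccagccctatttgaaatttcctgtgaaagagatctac
Skint4, chr4:112081220-112081469, plus strand: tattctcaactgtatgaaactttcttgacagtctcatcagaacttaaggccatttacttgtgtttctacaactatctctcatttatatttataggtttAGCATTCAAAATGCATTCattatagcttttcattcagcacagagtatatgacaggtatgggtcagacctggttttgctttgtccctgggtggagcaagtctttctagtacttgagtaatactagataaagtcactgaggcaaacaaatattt
The run shared by Skint9 and Skint10 is 19 bases long and begins 92 bases before the Skint9 start and 53 before the Skint10 start. That shared by Skint3 and Skint4 is 18 bases long and begins 207 and 152 bases before their starts. Each run occurs in 2 of 32851 promoters, 0.00609%, in each case only those of its own pair. Runs as long or longer joined other pairs of the family, with 51 bases for Skint7 and Skint8 and 26 for Skint5 and Skint6. Skint3 also shared 18 bases with Skint6, and only 11 with the first Skint4 start.

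Short motifs were searched on both strands of the 11 promoters listed for the 10 genes. TATAAA, the core of the TATA box, was found in 6 of them, Skint9 and the second Skint4 start among them, and in 12.4% of all promoters. CCAAT was found in 4, those of Skint1, Skint3, Skint9 and Skint10, and in 33.9% of all promoters. TGANTCA, the AP-1 motif, was found in 0 of 11, against 6.75% of all promoters. A match here is a description of letters and not of a bound site, and the absence of a match says nothing of the factor.

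**Figure D1:**
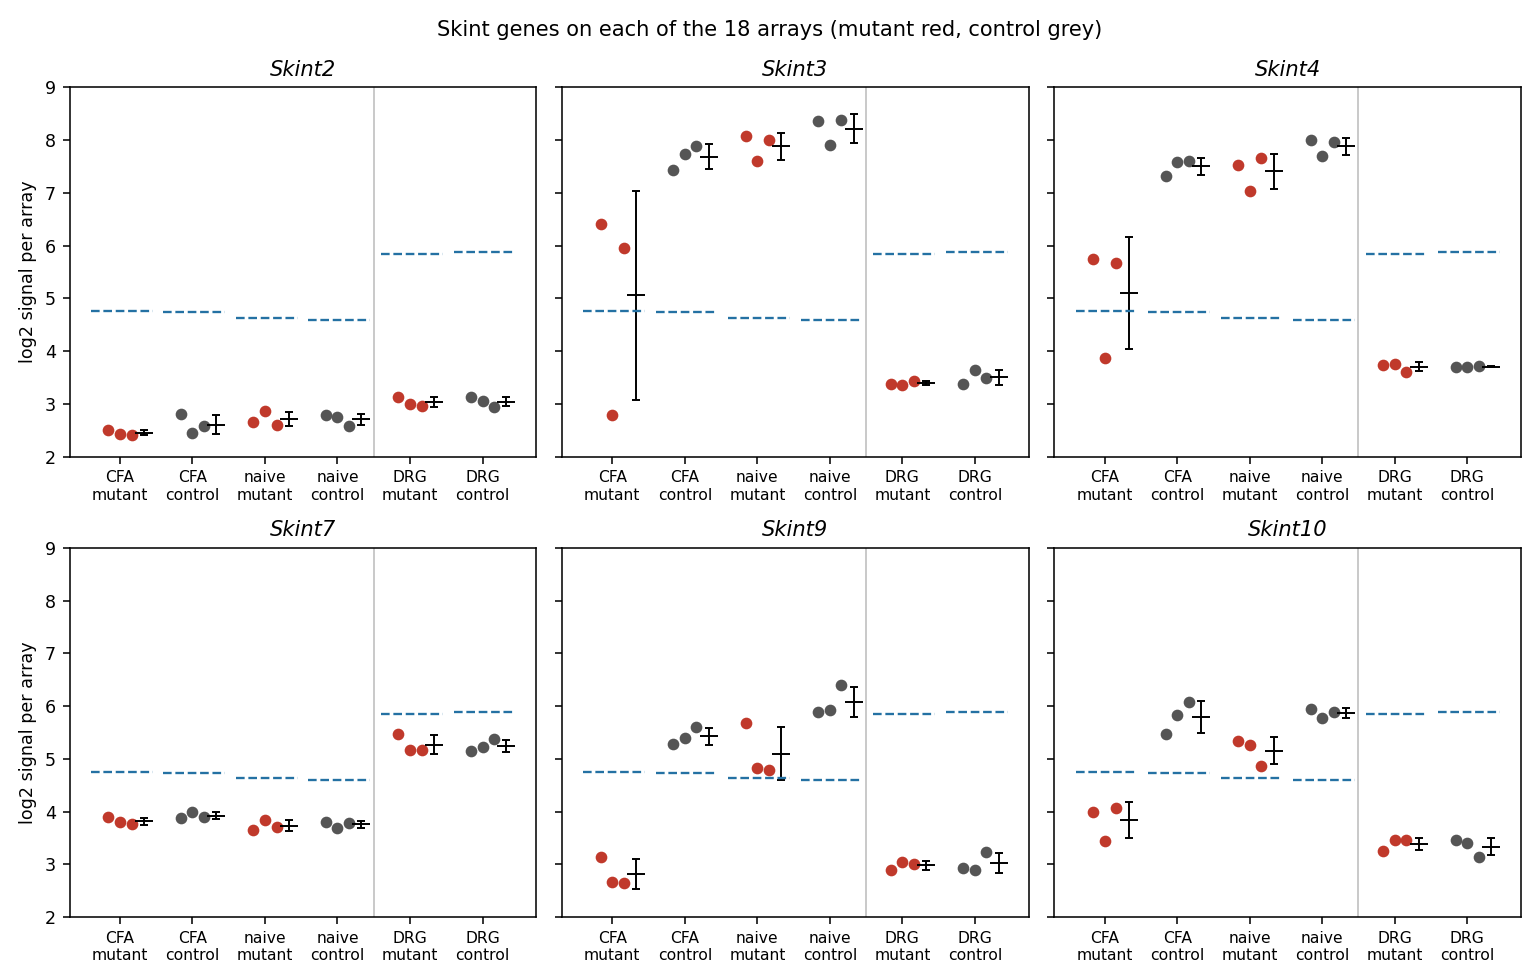
The log2 signal of the 6 Skint genes on each of the 18 arrays, with mutant mice as red points and control mice as grey points, the mean and SD of the 3 arrays in black and the mean receptor background of the group as a dashed blue line. Skint2 and Skint7 lie below background in every group, and Skint3, Skint4, Skint9 and Skint10 are lowest of the epidermis groups in CFA mutants.

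The epidermis carried signal above background for 4 of the 6 genes, Skint3, Skint4, Skint9 and Skint10. Of the 18 values in a group, 4 were above background in CFA mutant epidermis, all from Skint3 and Skint4, and 12 in each of CFA control, naive mutant and naive control epidermis. DRG had 0 of 18 above background in either genotype. The other 2 genes, Skint2 and Skint7, were below background on all 18 arrays, with Skint2 at 2.41 to 2.87 and Skint7 at 3.65 to 4.0 in epidermis. With background raised to the 99th percentile of receptor probe sets, the counts were 4 in CFA mutants, 9 in CFA controls, 7 in naive mutants and 12 in naive controls. At that percentile Skint10 was below background on all naive mutant arrays. Among CFA controls Skint9 was then above background only in replicate 3.

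In CFA epidermis every mutant array had less signal than every control array for the 4 detected genes, and this is the comparison on which the family was selected. Skint9 had signals of 3.15, 2.67 and 2.64 in CFA mutants, against 5.28, 5.40 and 5.60 in CFA controls. All 3 mutant arrays were below background, and no control array was. The difference was -2.61 (standard error 0.15), the 9th lowest of 23410 probe sets that carry a gene name. With the background put in place of the mutant signal, since a level below it has no measured size, Skint9 was at least 1.6-fold lower. That bound holds for the 95th percentile only. At the 99th, 5.57 to 5.71 on these mutant arrays, background lay above the Skint9 control mean of 5.43.

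Skint10 had signals of 4.0, 3.45 and 4.07 in CFA mutants, against 5.47, 5.83 and 6.08 in CFA controls. As with Skint9, the mutant arrays were all below background and the control arrays all above it. The difference was -1.96 (standard error 0.19), 26th lowest, and Skint10 was at least 2.06-fold lower.

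Skint3 had signals of 6.42, 2.79 and 5.96 in CFA mutants, against 7.43, 7.74 and 7.88 in CFA controls. The mutant arrays were all below the control arrays but far apart from each other, with replicate 2 below background and the others above it. The difference was -2.63 (standard error 0.75), 8th lowest, which is 6.18-fold. With background in place of the replicate 2 signal it was -1.97. Without mutant replicate 2 it was -1.50, and without mutant replicate 1 it was -3.31.

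Skint4, the neighbour of Skint3, had signals of 5.74, 3.88 and 5.67 in CFA mutants, against 7.32, 7.58 and 7.61 in CFA controls. The same mutant replicate was the lowest and the only one below background. The difference was -2.40 (standard error 0.41), 11th lowest, which is 5.3-fold. With background in place of the replicate 2 signal it was -2.11. It was -1.79 without mutant replicate 2, so the direction of all 4 genes was the same with or without that array.

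The groups did not overlap for 4 of the 6 genes, all lower in mutants, where 5.6% of all probe sets were lower in mutants without overlap. The undetected genes Skint2 and Skint7 differed by -0.15 and -0.10. The median over the 6 genes was -2.18, beside 0.01 over all probe sets, and it was -1.63 without mutant replicate 2 and -0.86 with signals below background set to the background. Since the family was selected on this comparison, these counts are a description of it.

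**Figure D2:**
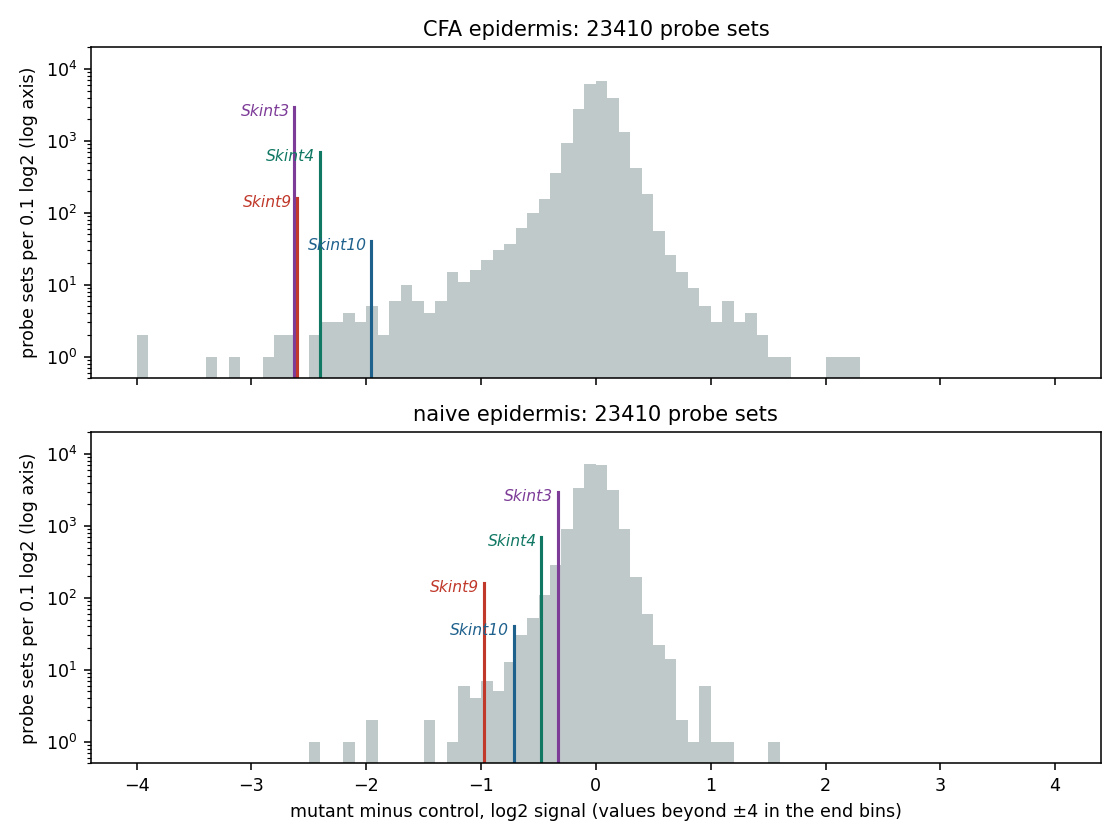
Histograms of the mutant minus control difference in log2 signal over 23410 probe sets, in CFA epidermis (top) and naive epidermis (bottom), with the number of probe sets on a log axis and coloured lines at the 4 detected Skint genes. In CFA epidermis the lines stand at -2.63 to -1.96, in the far lower tail, and in naive epidermis at -0.98 to -0.33.

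Markers of other epidermal cells were read beside this difference. Langerhans cell genes, 7 of 7 measured and all above background, had array means of 7.76 to 8.0 in CFA mutants and 8.40 to 8.55 in CFA controls, with a median difference of -0.42. Cd207, which encodes langerin and defines these cells, was at 6.12 ± 0.20 in CFA mutants and 6.82 ± 0.17 in CFA controls (SD, n = 3 each). Without overlap between genotypes, 5.6% of all probe sets were lower in CFA mutants and 8.68% higher. Of the 7 Langerhans cell genes, 5 were lower in CFA mutants without overlap and 0 higher, while Epcam and Mfge8 overlapped. H2-Eb1, 1 of the 5, was also lower in naive mutant than naive control epidermis, with means of 6.88 and 7.73. The list went both ways there, with a median difference of 0.05. Cd74 was higher in naive mutants, at 9.39 against 9.09, as were H2-Aa, H2-Ab1 and Mfge8, while Cd207 and Epcam were lower (means). In DRG the means of H2-Eb1 were 7.71 in mutants and 8.55 in controls, and the median difference of the list was -0.39. Most Langerhans cell genes thus moved with the Skint genes in CFA epidermis, and their part in the result was not tested.

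Myeloid genes, 8 of 8 measured, had array means of 5.89 to 6.75 in CFA mutants and 6.20 to 7.23 in CFA controls, which overlap, with a median difference of -0.58. Beside 5.6% of all probe sets lower in mutants without overlap and 8.68% higher, 2 of these genes were lower and 0 higher. They were Csf1r, at 6.88 in CFA mutants and 7.66 in CFA controls, and Fcgr3, at 5.94 and 6.96 (means). The part of myeloid genes was not tested either. Basal keratinocyte genes, 8 of 8 measured, had means of 10.55 to 10.68 in CFA mutants and 10.51 to 10.61 in CFA controls. Suprabasal keratinocyte genes, 10 of 12 measured, had means of 9.54 to 9.82 in CFA mutants and 9.46 to 9.99 in CFA controls, and a median difference of -0.01. The list means overlapped in both cases, while single genes went both ways. Without overlap between genotypes, Krt15 was lower and Itgb4 higher in mutants among the basal genes, and Flg2 was lower and Krt1 and Krt9 higher among the suprabasal genes. The part of keratinocyte states in the Skint result was not tested. In bulk epidermis fewer cells of a type and less RNA per cell cannot be told apart.

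Dendritic epidermal T cells, the cells that Skint1 selects, were followed by 20 of 24 listed genes, without the T cell receptor genes Trdc, Tcrg-V5, Tcrg-C1 and Trdv4, which have no probe set of their own here. Their mean signal was 4.55 to 4.60 in CFA mutants and 4.53 to 4.63 in CFA controls, with a median difference of 0.02, and 7 to 8 of the 20 were above background on an array. Cd3e, a subunit of the T cell receptor complex, was at 6.04 ± 0.24 in CFA mutants and 5.98 ± 0.08 in CFA controls, and Thy1, a T cell surface protein also made by other cells, was at 8.31 ± 0.19 in CFA mutants and 8.49 ± 0.08 in CFA controls (SD, n = 3 each). Fcer1g, an Fc receptor signalling subunit also made by myeloid cells, was lower in CFA mutants without overlap, at 5.40 ± 0.06 in CFA mutants and 5.86 ± 0.06 in CFA controls. Klrc1 was also lower and Itgae higher in CFA mutants without overlap, both below background on all these arrays, and the other 17 genes overlapped, Ptprc among them at 5.56 ± 0.14 in CFA mutants and 5.87 ± 0.27 in CFA controls. Cd3d was below background in every epidermis group. The 14 measured butyrophilin genes and more distant relatives had a median difference of -0.05. For both lists, the shares over all probe sets were 5.6% lower in CFA mutants without overlap and 8.68% higher. Of the butyrophilin genes and relatives 2 were lower in CFA mutants without overlap and 0 higher. They were Btnl2, at 5.26 in CFA mutants and 5.51 in CFA controls, and Cd274, at 5.42 and 6.17 (means).

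Genes that flank the cluster were read in the same arrays, chosen for their position. Slc5a9, a sodium-dependent sugar transporter on the Skint8 side, was at 7.67, 6.85 and 7.93 in CFA mutants, against 7.94, 8.05 and 8.48 in CFA controls. Spata6, beyond it, was at 5.29, 4.98 and 5.91 in CFA mutants, against 5.54, 5.71 and 6.01 in CFA controls. Mutant replicate 2 was the lowest for both, as for Skint3 and Skint4. On the Skint5 side Trabd2b, an inhibitor of Wnt signalling, was at 6.35 ± 0.67 in CFA mutants and 7.13 ± 0.33 in CFA controls by 1 probe set (SD, n = 3 each). By the other it was at 7.09 ± 0.26 in CFA mutants and 7.46 ± 0.19 in CFA controls. The forkhead factor gene Foxd2 was at 5.61 ± 0.05 in CFA mutants and 5.62 ± 0.12 in CFA controls (SD, n = 3 each). Skint11, a family gene of the cluster outside the 10, was at 3.65 ± 0.43 in CFA mutants, below background on all arrays, and at 4.61 ± 0.49 in CFA controls, above it on 1 of 3.

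In naive epidermis, whose arrays were not used to choose the family, no Skint gene passed the test between genotypes. Skint10 had signals of 5.34, 5.27 and 4.87 in naive mutants, against 5.95, 5.77 and 5.90 in naive controls. All 6 arrays were above background and the groups did not overlap. Skint10 was 1.64-fold lower (log2 difference -0.71, standard error 0.13), with an adjusted p of 0.231 by limma over 23410 probe sets and an unadjusted p of 0.0005.

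Skint9 had signals of 5.68, 4.82 and 4.80 in naive mutants, against 5.89, 5.94 and 6.40 in naive controls. Mutant replicate 1 lay close to the controls, and the other mutant arrays lay just above background. Skint9 was 1.97-fold lower (log2 difference -0.98, standard error 0.24), with an adjusted p of 0.42 by limma.

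Skint4 had signals of 7.52, 7.04 and 7.66 in naive mutants, against 7.99, 7.70 and 7.95 in naive controls, with no overlap. The log2 difference was -0.48 (standard error 0.16), with an adjusted p of 0.475 by limma. Skint3 had signals of 8.07, 7.59 and 7.99 in naive mutants, against 8.36, 7.90 and 8.39 in naive controls, and here the groups overlapped. The log2 difference was -0.33 (standard error 0.16), with an adjusted p of 0.586 by limma. Skint2 and Skint7, both below background, differed by 0.01 and -0.03.

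By limma 0 of 6 Skint genes were called in naive epidermis, where 7 probe sets, 0.0299% of all, were lower in mutants and 0 higher were called. At an unadjusted p under 0.05, 3 of the 6 genes were lower (Skint4, Skint9 and Skint10), where 4.78% of all probe sets were. The same 3 did not overlap between genotypes, where 8.93% of all probe sets were lower in mutants without overlap. The median over the 6 genes was -0.40, beside -0.00 over all probe sets. With limma's trend and robust options, which let the variance depend on the signal, Skint10 passed with an adjusted p of 0.0324, against 0.139 to 0.548 under the other alternatives tried. Those options also called more of all probe sets than the main fit, 48 lower and 31 higher. In none of the 10 lists of cell markers and butyrophilin relatives was a gene called between naive genotypes, and their medians lay between -0.12 and 0.07.

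**Figure D3:**
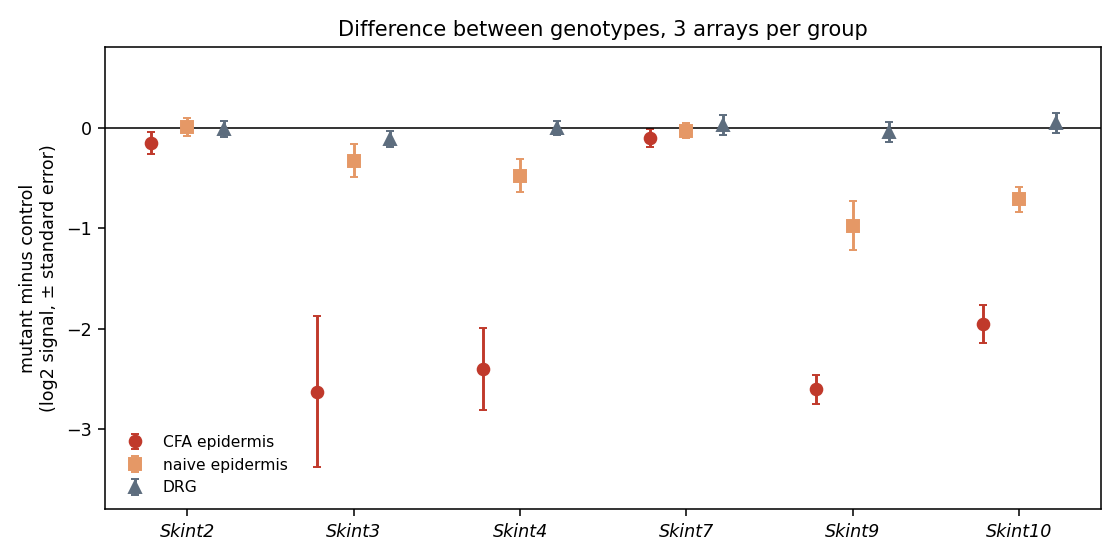
Mutant minus control difference in log2 signal with its standard error for the 6 Skint genes in CFA epidermis (red circles), naive epidermis (orange squares) and DRG (grey triangles), each from 3 arrays per genotype. The 4 detected genes lie at -2.63 to -1.96 in CFA epidermis and at -0.98 to -0.33 in naive epidermis, and all 6 genes lie between -0.11 and 0.05 in DRG.

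With CFA, the 4 detected genes had lower mean signals than in naive epidermis when both genotypes were weighted equally. Each such average is in part the CFA mutant level on which the family was chosen, so the values are a description with no test. The difference was -1.68 for Skint3 (standard error 0.46), -1.34 for Skint4 (standard error 0.26), -1.46 for Skint9 (standard error 0.16) and -0.70 for Skint10 (standard error 0.13). With every signal below background set to the background of its array, the differences were -1.35 for Skint3, -1.20 for Skint4, -0.50 for Skint9 and -0.24 for Skint10. Without CFA mutant replicate 2 the difference of Skint3 was -1.11.

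Skint2 and Skint7, below background, differed by -0.18 and 0.13. In the limma fit over all probe sets 4 of the 6 genes were lower past the threshold, where 20.4% of 23410 probe sets were, and nothing is read from that count, given how the family was chosen. The median over the 6 was -1.02, beside 0.03 over all probe sets, and -0.37 with background in place of signals below it.

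Each genotype's response likewise shares the CFA arrays that chose the family and is given with no test. In mutants CFA minus naive was -2.83 for Skint3 (standard error 0.79) and -2.31 for Skint4 (standard error 0.44). With background in place of signals below it, these were -2.17 for Skint3 and -2.01 for Skint4. Skint9 and Skint10 were below background on all CFA mutant arrays, so only a bound can be given, at least 1.27-fold lower than in naive mutants for Skint9 and at least 1.33-fold lower for Skint10. With background at the 99th percentile, 5.57 to 5.71 on CFA mutant arrays, the naive mutant means of both genes lay below it and no bound is left. The groups did not overlap for 5 of 6 genes, all lower with CFA and Skint2, below background, among them, where 19.5% of all probe sets were.

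In controls CFA minus naive was -0.53 for Skint3 (standard error 0.16), -0.38 for Skint4 (standard error 0.12), -0.65 for Skint9 (standard error 0.15) and -0.08 for Skint10 (standard error 0.15). Skint3, Skint4 and Skint9, 3 of 6, were lower with CFA without overlap, where 22% of all probe sets were, and Skint7 was higher without overlap but below background. The mutant response minus the control response was -2.30 for Skint3 (standard error 0.92) and -1.93 for Skint4 (standard error 0.52), and -1.64 and -1.63 with background in place of signals below it. On that footing it was 0.30 for Skint9 and -0.33 for Skint10, so which genotype had the larger response is not settled for Skint9.

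**Figure D4:**
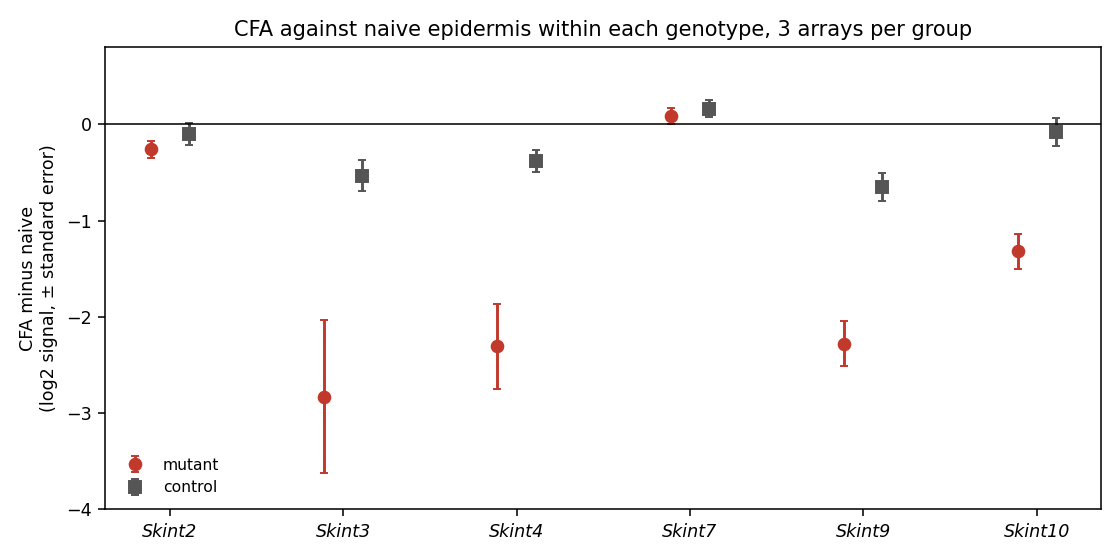
CFA minus naive difference in log2 signal with its standard error for the 6 Skint genes in mutant epidermis (red circles) and control epidermis (grey squares), from 3 arrays per group and from signals as deposited. Skint3 and Skint4 lie at -2.83 and -2.31 in mutants and at -0.53 and -0.38 in controls. The mutant points of Skint9 and Skint10 rest on CFA signals below background, and those of Skint3 and Skint4 do so in part.

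The layers of the epidermis changed with CFA at the same time, averaged over genotypes. Of all 23410 probe sets, 5459 rose and 4779 fell by limma at an adjusted p under 0.05. All 8 basal keratinocyte genes measured rose, with a median of 0.54, led by the hemidesmosome genes Itga6 (1.12), Itgb4 (0.76) and Dst (0.75) and by Col17a1 (0.58). Of 10 suprabasal genes 7 fell and 0 rose, with a median of -0.70, and the largest changes were those of the cornified layer genes Flg2 (-3.25, with CFA signals above background on 1 of 6 arrays), Cdsn (-3.20), Lor (-2.08) and Ivl (-1.01). These are log2 differences by limma, all with adjusted p-values under 0.05. The mean signals of the 4 detected Skint genes were lower with CFA, as were those of most suprabasal genes, and the part of these layers in the Skint result was not tested.

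Of 20 dendritic epidermal T cell genes 5 rose with CFA and 0 fell, with a median of 0.13. Over all probe sets 5459 of 23410 rose, so the share of T cell genes that rose was close to the share of all. The 4 largest were Thy1 (1.17), the cytotoxic granule gene Nkg7 (0.49), Cd3e (0.36) and Fcer1g (0.28), again as log2 differences. Nkg7 was above background on only 1 of the 12 epidermis arrays, so its rise has no measured size. Of 14 butyrophilin genes and relatives, 2 rose, Cd276 (0.25), a ligand that modulates T cells, and Btn2a2, which was below background on all 12 arrays, and 1 fell, Vtcn1 (-0.56), an inhibitory T cell ligand.

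Set in order by mean signal, naive controls were the highest and CFA mutants the lowest for all 4 genes. For Skint3 the means were 5.06 in CFA mutants, 7.68 in CFA controls, 7.89 in naive mutants and 8.22 in naive controls, and only the CFA mutants were apart from the group next to them. For Skint4 they were 5.10 in CFA mutants, 7.50 in CFA controls, 7.40 in naive mutants and 7.88 in naive controls, and CFA controls and naive mutants overlapped.

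For Skint9 the means were 2.82 in CFA mutants, 5.43 in CFA controls, 5.10 in naive mutants and 6.08 in naive controls, and again CFA controls and naive mutants overlapped. For Skint10 they were 3.84 in CFA mutants, 5.79 in CFA controls, 5.16 in naive mutants and 5.87 in naive controls, and here CFA controls and naive controls overlapped.

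In DRG, which holds neuron cell bodies and glia but no epidermis, all 6 genes were below background in both genotypes. Skint3 was at 3.38, 3.35 and 3.43 in DRG mutants, against 3.37, 3.64 and 3.49 in DRG controls. Skint4 lay at 3.60 to 3.76, Skint9 at 2.89 to 3.24, Skint10 at 3.15 to 3.46, Skint2 at 2.95 to 3.13 and Skint7 at 5.14 to 5.48 over the DRG arrays. Mutant and control arrays overlapped for every gene, and differences lay between -0.11 and 0.05.

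By limma 0 of 6 genes were called in DRG and 0 had an unadjusted p under 0.05, where 11 probe sets, 0.047% of all, were lower and 6 higher at an adjusted p under 0.05. Among all probe sets 6.77% were lower in mutants without overlap, and 0 of the 6 genes were. Suprabasal keratinocyte genes were highest in DRG mutant replicate 1, with a mean of 6.28, and DRG control replicate 3, with a mean of 5.91, and the Skint genes were below background on those arrays too.

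The 4 detected genes were compared with each other and with the other genes over the 12 epidermis arrays, as a description, since these arrays share their groups and among them the CFA mutants stand apart. Skint3 and Skint4, the neighbours, had a Pearson correlation of 0.98 over the 12 arrays and 0.87 over the 9 arrays left without CFA mutants. Skint9 and Skint10 had 0.95 over the 12 arrays and 0.74 over the 9. Skint3 and Skint10 had 0.86 over the 12 and 0.31 over the 9, the lowest of the 6 pairs without CFA mutants.

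Among 15255 probe sets with exactly 1 gene and above background on at least 6 of the 12 arrays, the nearest to Skint9 were Endou, an endoribonuclease gene (0.95), the receptor tyrosine phosphatase gene Ptprk (0.92) and the neuron navigator gene Nav3 (0.92), as Pearson correlations over 12 arrays. For Skint10 they were Endou (0.91), the arylsulfatase gene Arsk (0.89) and Ptprk (0.89), and for Skint4 they were Nav3 (0.93), Ptprk (0.91) and Nudt16l1 (0.90). For Skint3 they were Tmed3 (0.90), the ribosomal protein gene Rpl10 (0.90) and Ech1 (0.89), an enzyme of fatty acid breakdown. Without CFA mutants, over 9 arrays, these correlations were lower, at 0.21 for Rpl10 with Skint3, 0.59 for Endou with Skint9 and 0.79 for Nav3 with Skint4.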

How the data were processed

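The deposited values are log2 signals from RMA, in which probes are background-subtracted, put on a common distribution across arrays and summarised into sets. As deposited, array medians differed between the tissues, so the epidermis and DRG arrays were not all on 1 distribution. Partek is also named in the submitters' processing notes. From each sample 100 ng of RNA was labelled. The values were used as deposited, with 0 missing. Of 35556 probe sets, 23410 are paired with at least 1 gene by the platform's table and were tested, 1621 of them with several genes, and 12146 without a name were left out. Groups were compared within a tissue with lmFit and eBayes of limma 3.58.1 (R 4.3.3), two-sided, with Benjamini-Hochberg adjustment over 23410 probe sets and a threshold of 0.05. Naive genotypes were fitted on their own arrays, and CFA minus naive over all 4 epidermis groups with a mean each. The replicates are the paper's biological replicates, and p-values measure the spread between these samples.

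The members, gene lists and tests were chosen with earlier results of these data known. All 6 Skint probe sets are reported. Likeness names the 3 genes with the highest Pearson correlation, and lists (96 entries, 85 measured) are given by counts and up to 4 genes, past the threshold and with the largest changes. Between genotypes in CFA epidermis there was no threshold, so the list genes named there are outside that rule. Many of them were named because the groups did not overlap. Cd207, Cd3d, Cd3e, Thy1, Ptprc, Epcam and Mfge8 in CFA epidermis were chosen with values seen. The same holds for Langerhans cell genes in naive epidermis and DRG, for Skint11 and for the flanking genes, all outside that rule. A group below background on all arrays gives a fold of at least the brighter mean over the mean background of the dimmer group. The alternatives comprised median centring, a second quantile normalization, dim probe sets left out, all probe sets tested, trend and robust moderation, ordinary ANOVA, the replicate number as a block, other samples or terms in the fit, a 2-fold threshold, other background percentiles and single arrays left out. The fits were tested on simulated data. Promoters came from a RefSeq table (GRCm38.p6) with entries for all 10 genes. Data were handled with Python 3.11.15, numpy 2.4.6, pandas 2.3.3 and matplotlib 3.10.9.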

Additional observations from a re-analysis of the deposited data

How the results depend on the processing

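The number of Skint genes called in naive epidermis was 0 under all but 1 of the alternatives, including a 2-fold threshold. It became 1 with trend and robust moderation, which called Skint10, where 48 of all probe sets were lower and 31 higher. For CFA minus naive averaged over genotypes nothing is read from the count of genes called, given how the family was chosen. Its values under the alternatives are a description only. The count of 4 lower, where 4779 of all probe sets were lower, became 5 lower with median centring, where 5212 were. The count was 3 with an ordinary ANOVA, where 4516 of all probe sets were lower, and 3 at a threshold of 2-fold. With each array left out it was 4 to 5 lower, and without naive mutant replicate 2 it was 4 lower and 1 higher. In DRG the count was 0 throughout. Over single genes in the fits with a threshold, 134 values kept their direction and their side of it, 1 was lost, 1 was gained and 0 reversed. The values of CFA minus naive are among these and are likewise a description only.

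The median Skint difference between CFA mutants and CFA controls was -2.38 to -1.63 when each array was left out in turn, the higher value without CFA mutant replicate 2, and -2.18 over all arrays. With signals below background set to the background, an alternative chosen after seeing the data, it was -0.86, since levels below it then no longer count. The cause of the shift without replicate 2 was not tested. For single genes in that comparison 38 values moved by less than the spread between replicates, and 2, those of Skint9 and Skint10 with background in place of the signal, moved by more. For Skint3 and Skint4 that spread includes CFA mutant replicate 2, with SDs of 1.97 and 1.06 in CFA mutants. The move of Skint3 from -2.63 to -1.50 without that array is among the 38, so the count cannot show that the array mattered little. With the replicate block, 0 genes were called in naive epidermis and 0 in DRG. With CFA 4 genes were lower, where 4624 of all probe sets were, and again nothing is read from that count. Deviations from the group means correlated at -0.24 to 0.23 between same-numbered arrays of different groups. Arrays with different numbers were not compared in this way, so whether the replicate numbers pair the samples was not settled. Levels below the receptor background have no measured size, which limits Skint9 and Skint10 in CFA mutants and all 6 genes in DRG. The same limit holds for Skint3 and Skint4 in CFA mutant replicate 2, and for Skint2 and Skint7 on all arrays.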
